A study of Mus musculus with 19 samples.

Results

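The data compared cultured mouse hippocampal neurons given 1 µM of a compound that the titles call Ro25 with neurons given vehicle, both for 6 h on day 21 in culture. The comparison was taken from the array titles and held 10 of the 19 arrays of the series, 5 with Ro25 and 5 with vehicle. All neurons were dissociated cells in 6-well plates, and no genotype or other agent is given for either group. The treatment labels name the compound Ro25-4891, whose prefix is shared with a GluN2B antagonist in wide use but whose number is a different one, so its identity is not settled here. The other 9 arrays, 5 with 100 µM AP5 and 4 with 100 nM NVP-AAM077 (NVP), entered the fit for the spread of each gene. Whether the 5 replicates of a group are separate cultures is not stated, so the p-values below refer to the variation between these samples, part or all of which may be technical.

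NMDA receptors are glutamate-gated channels that pass calcium into neurons. They pair GluN1 subunits, encoded by Grin1, with GluN2 subunits such as GluN2A and GluN2B, encoded by Grin2a and Grin2b. In hippocampal neurons the calcium signal reaches the nucleus through CaM kinases and the ERK pathway and switches on immediate early genes, whose promoters are read by CREB and by serum response factor. ERK signalling also raises the genes of its own inhibitors, the sprouty, SPRED and dual-specificity phosphatase families. The series title asks about basal NMDA receptor activity, neuronal survival and histone deacetylase 4.

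Each array carried the neuron RNA in red and the same commercial mouse reference RNA in green. The value of a gene was log2 of red over green after background correction and loess, so 0 means a corrected signal equal to that of the reference RNA on that probe. The correction added an offset of 50 to both channels, which draws the ratios of dim probes toward 0. A difference is the mean of the 5 Ro25 arrays minus the mean of the 5 vehicle arrays on this log2 scale. The arrays lay on slides that were tied to treatment: Ro25 1 and 4 were on slide 3, Ro25 2, 3 and 5 shared slide 4 with vehicle 2, and vehicle 1, 3, 4 and 5 were on slide 5. Thus slide 4 was the only one with both groups. Across genes, values correlated at 0.983 to 0.995 between Ro25 arrays, at 0.982 to 0.994 between vehicle arrays and at 0.980 to 0.996 between a Ro25 and a vehicle array. Defining markers of neurons (Rbfox3, Map2, Tubb3, Snap25 and Syt1) and of excitatory and GABAergic cells (Slc17a7, Neurod6, Gad1 and Slc32a1) were well above background on all 10 arrays. So were the astrocyte markers Gfap, Aqp4, Slc1a2, Slc1a3, Aldh1l1 and Gja1. The mean of 17 astrocyte markers was 3.71 to 4.14 on 8 arrays, but 2.92 on Ro25 3 and 2.97 on vehicle 3. In such bulk RNA, fewer cells of a type and less RNA per cell cannot be told apart. Scanning software had marked 1642 spots on vehicle 5, which were left out, against 117 to 266 on the other 9 arrays.

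The response to Ro25 was small. Of 19197 genes tested, 0 (0%) passed limma at an adjusted p under 0.05, and the smallest adjusted p was 0.325. At an unadjusted p under 0.05 there were 1182 genes (6.16%), 621 higher with Ro25 (3.23%) and 561 lower (2.92%). Differences ran from -0.72 to 0.61, and the middle 98% of genes lay between -0.23 and 0.24. The median standard error was 0.08, and the 95% confidence interval reached a median of 0.16 to either side. For 18769 genes (97.8%) the whole interval lay within 1.5-fold in either direction. The interval of 428 genes reached past 1.5-fold, and that of 0 genes lay wholly beyond it. These intervals take no account of slide. The median standard error was 0.13 with slide as a fixed block and 0.11 with Agilent's own processed ratio. Intervals within 1.5-fold were not counted for those fits. In the same fit, 100 µM AP5 gave 3463 called genes against the same vehicle arrays, and 100 nM NVP gave 0. With AP5 only 297 genes had a fitted difference of at least 1.5-fold, so differences under that size were callable on these arrays. Doses and compounds differed, and the 3 comparisons share the vehicle arrays, so these counts are set side by side only.

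The fitted difference was at least 1.5-fold for 6 genes (0.0313%), of which 5 were lower. Npas4 and Ptgs2, both activity-regulated genes, were at -0.70 and -0.63. The odorant receptor gene Olfr633 was at -0.72 and the transcript A730093L10Rik at -0.63, but both rested on vehicle 4. That array stood at 2.85 for Olfr633, while the other 4 vehicle arrays ranged from 0.05 to 0.84. For A730093L10Rik it stood at 2.52, against -0.06 to 0.59. The transcript 4933406C10Rik was at -0.61, and TC1667915, a probe without an official symbol, was the one higher with Ro25, at 0.61.

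Npas4, a transcription factor induced by calcium entry in neurons, had the smallest p of all genes. Its log2 ratio on Ro25 arrays 1 to 5 was 0.54, 0.77, 0.59, 0.67 and 0.19, and on vehicle arrays 1 to 5 it was 0.89, 1.17, 1.69, 1.10 and 1.39. All 5 Ro25 arrays lay below all 5 vehicle arrays, with vehicle 1 the nearest and vehicle 3 the highest. The difference was -0.70 (SE 0.13), or 1.62-fold lower with a 95% interval of 1.35 to 1.95 in the main fit. That interval does not cover the choice of processing: over the 16 alternatives listed below, the difference ran from -1.38 to -0.60. In the main fit Npas4 did not pass limma, with an adjusted p of 0.325. Under AP5 the difference from vehicle was -1.33 (SE 0.13) and under NVP -0.33 (SE 0.14). Within slide 4, Npas4 was at -0.66 (SE 0.24) for 3 Ro25 arrays against vehicle 2. The green reference signal of its probe differed by only -0.03 (SE 0.04) between the groups.

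Nr4a1, an orphan nuclear receptor and immediate early gene, also showed no overlap. Its log2 ratio was -1.32, -1.54, -1.36, -1.38 and -1.50 with Ro25 and -1.25, -1.01, -0.71, -1.06 and -1.03 with vehicle. Vehicle 1 was again closest to the Ro25 arrays and vehicle 3 farthest from them. The difference was -0.41 (SE 0.08), 1.33-fold lower with an interval of 1.18 to 1.502, at a limma adjusted p of 0.325. It was -1.45 with AP5 and -0.26 with NVP.

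Srf encodes serum response factor, which drives immediate early promoters together with ERK-responsive partners. Its log2 ratio was 0.18, 0.09, 0.18, 0.12 and 0.13 with Ro25 and 0.36, 0.44, 0.57, 0.49 and 0.38 with vehicle. The groups did not overlap, and the Ro25 arrays were close together (SD 0.04 against 0.09 for vehicle). The difference was -0.31 (SE 0.07), 1.24-fold lower with an interval of 1.13 to 1.36, at a limma adjusted p of 0.325. For this gene the difference with AP5 was -0.22 (SE 0.07) and with NVP -0.12 (SE 0.07). When the astrocyte marker mean of each array entered the fit, Srf and Ptgs2 passed limma at an adjusted p of 0.0416, at -0.30 and -0.59.

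**Figure D1:**
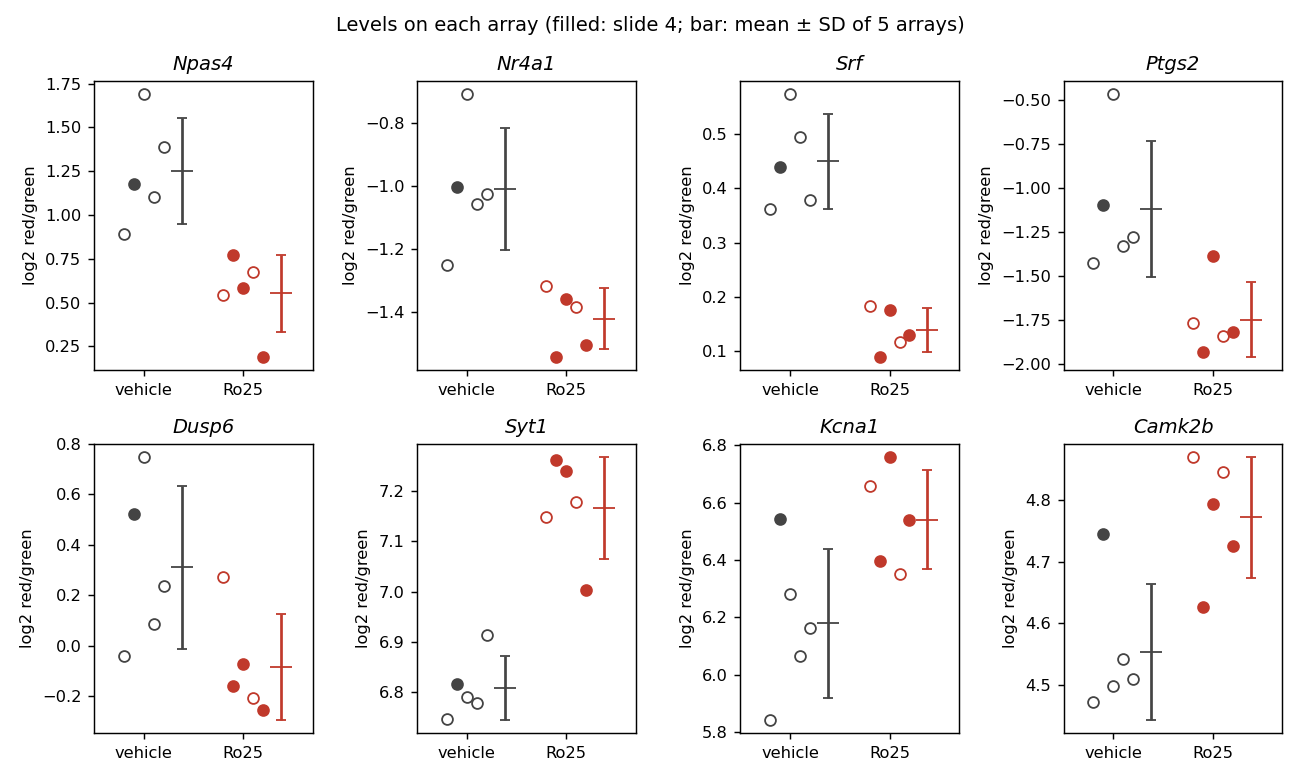
Log2 red/green of 8 genes on each array (vehicle in grey, Ro25 in red, filled points for slide 4), with bars for mean ± SD over 5 arrays and a vertical axis of its own for each gene. Npas4, Nr4a1, Srf and Syt1 did not overlap between groups, while Ptgs2, Dusp6, Kcna1 and Camk2b did, and vehicle 2 stood at 6.54 for Kcna1 and 4.74 for Camk2b, inside the Ro25 range.

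The promoters of Npas4, Nr4a1 and Srf are shown as those of the 3 non-overlapping lower genes of smallest p, a choice made after their values were seen. What lowers these genes was not tested. RefSeq's table for GRCm38.p6 gave the 250 bases upstream of each start, 5′ to 3′ in the direction of transcription: Npas4 at chr19:4989972-4990221 (minus strand), Nr4a1 at chr15:101266596-101266845 (plus strand) and Srf at chr17:46556163-46556412 (minus strand). Capitals mark TGACG or its reverse complement CGTCA, the core of the cyclic AMP response element bound by CREB, and the CArG box bound by serum response factor.
Npas4: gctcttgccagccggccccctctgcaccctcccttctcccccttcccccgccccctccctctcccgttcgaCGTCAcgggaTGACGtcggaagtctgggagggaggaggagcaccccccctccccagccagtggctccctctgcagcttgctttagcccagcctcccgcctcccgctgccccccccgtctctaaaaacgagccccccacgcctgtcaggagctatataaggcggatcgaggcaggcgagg
Nr4a1: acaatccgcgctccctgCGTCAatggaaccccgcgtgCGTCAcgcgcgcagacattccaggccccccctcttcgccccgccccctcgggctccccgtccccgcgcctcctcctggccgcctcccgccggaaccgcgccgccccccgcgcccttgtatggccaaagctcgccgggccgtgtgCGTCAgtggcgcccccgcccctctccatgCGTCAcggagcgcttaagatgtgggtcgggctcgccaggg
Srf: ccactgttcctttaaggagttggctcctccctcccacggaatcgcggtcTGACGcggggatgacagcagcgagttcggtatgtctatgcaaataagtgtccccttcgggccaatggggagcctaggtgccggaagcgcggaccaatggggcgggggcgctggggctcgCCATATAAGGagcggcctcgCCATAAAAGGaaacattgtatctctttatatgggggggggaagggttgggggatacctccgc

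TGACG on either strand was found 2 times in the Npas4 window, 4 times for Nr4a1 and 1 time for Srf, and the Srf window also held 2 CArG boxes. Of all 32817 distinct windows of this length, 17.7% held TGACG and 1.47% held a CArG box. With 1 window per gene, the first in the table, TGACG was in 14 of the 22 immediate early genes that had one (63.6%), in 1 of 10 ERK feedback regulators and in 24.6% of the 12678 tested genes that had one. A CArG box was in 0 of the 22 and 0 of the 10, against 1.22% of those genes. The full palindrome TGACGTCA, which contains TGACG, was in 2 of the 22, in 0 of the 10 and in 2.48% of tested genes, and in 0 of the 3 windows printed. Such matches describe letters only.

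Immediate early genes were mostly lower with Ro25. Of 28 in the list, 27 were measured, 22 lay below 0 and 5 above, and their median difference was -0.15, against 0.007 over all genes. An unadjusted p under 0.05 was reached by 10 members, all lower (37.0%, against 2.92% of all genes), and 0 passed the adjusted threshold. These 10 were Npas4, Nr4a1, Junb, Fosl1, Egr1, Arc, Btg2, Fos, Csrnp1 and Egr3. The groups did not overlap for 2, Npas4 and Nr4a1 (0.412% of all genes were lower without overlap). Arc, which encodes a postsynaptic protein that trims AMPA receptors, was 2.11 to 2.51 with Ro25 and 2.42 to 2.88 with vehicle, a difference of -0.33 (SE 0.14). Fos, an AP-1 subunit, was at -0.43 (SE 0.18), with Ro25 3 the lowest array at -3.53 and Ro25 5 at -2.52 inside the vehicle range of -2.77 to -2.27. It was at -0.28 without Ro25 3 and at -0.17 (SE 0.31) within slide 4. Egr1, a zinc finger factor of synaptic plasticity, was at -0.33 (SE 0.13) and Junb at -0.28. The members above 0 were Jund (0.14), Jun (0.09), Nr4a3 (0.08), Egr4 (0.05) and Gadd45g (0.02). The list mean of each array ran from -0.98 to -0.79 with Ro25 and from -0.87 to -0.54 with vehicle, so vehicle 1 lay inside the Ro25 range and vehicle 3, poor in astrocyte markers, was the highest. Ro25 3 was equally poor in astrocyte markers and lay at -0.79. Without both of these arrays the median was -0.12, with 22 of 27 members still below 0. Members lower at an unadjusted p under 0.05 numbered 3 with slide as a fixed block, 6 with marked spots in the background fit, 7 with log ratios at 1 spread and 4 with Agilent's ratio, which also put 1 member higher. The median was -0.09 with marked spots in that fit and -0.10 at 1 spread, while the members would stand at -0.06 if each had the median of all genes in its class of mean ratio. The list had a median ratio of -1.55, and 250 of the 3140 genes with ratios between -3 and -1 were lower at an unadjusted p under 0.05.

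Genes that ERK signalling induces to restrain itself were lower as well. Of 14 measured members of 15, 13 lay below 0 and the median was -0.19. Of these, 6 had an unadjusted p under 0.05, all lower (42.9%, against 2.92% of all genes), and again 0 passed the adjusted threshold. The list mean of each array ran from 0.22 to 0.37 with Ro25 and from 0.30 to 0.60 with vehicle. Vehicle 3 was again the highest, and vehicle 1 lay inside the Ro25 range. Without vehicle 3 the list median was -0.13, and without Ro25 1 it was -0.25. Dusp6, the phosphatase that inactivates ERK in the cytoplasm, had log2 ratios of 0.27, -0.16, -0.07, -0.21 and -0.25 with Ro25 and of -0.04, 0.52, 0.75, 0.09 and 0.24 with vehicle. Ro25 1 and vehicle 1 crossed over, and the difference was -0.39 (SE 0.18), or -0.29 without vehicle 3. Phlda1 was at -0.31 (SE 0.08), but at -0.12 (SE 0.15) within slide 4. Spred3 was at -0.29, Spred2 at -0.26 and the ETS factor gene Etv5 at -0.24. Spred2, an inhibitor of RAF activation, was the member without overlap. The sprouty genes Spry1, Spry2 and Spry4 were at -0.10, -0.16 and -0.19 with intervals that include 0, and Spred1 was at 0.01. With AP5 the same members had a median of -0.61 and with NVP of -0.07.

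**Figure D2:**
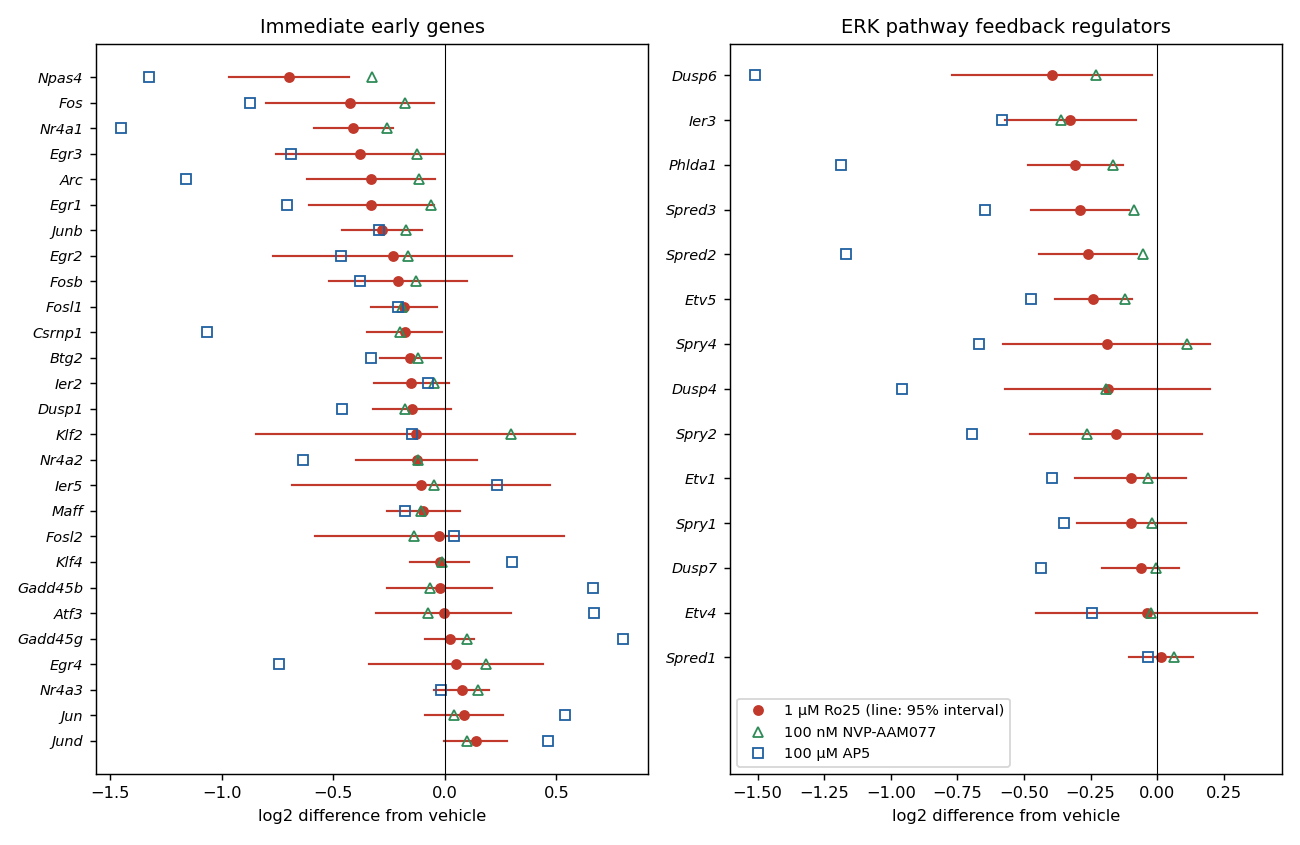
Log2 difference from vehicle of each measured immediate early gene (left) and ERK feedback regulator (right), for 1 µM Ro25 with its 95% interval, 100 nM NVP-AAM077 and 100 µM AP5, all against the same 5 vehicle arrays. For Ro25, 22 of 27 and 13 of 14 points lie below 0, and Npas4 is the lowest at -0.70.

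Among genes induced later by activity, 26 of 29 were measured, with a median of -0.05 and 16 below 0. Ptgs2, the inducible cyclooxygenase, was the lowest. Its log2 ratio was -1.76, -1.93, -1.38, -1.84 and -1.82 with Ro25 and -1.43, -1.10, -0.47, -1.33 and -1.28 with vehicle. Ro25 3 lay just above vehicle 1, so the groups overlapped by that pair. The difference was -0.63 (SE 0.16), 1.54-fold lower with an interval of 1.23 to 1.94, at a limma adjusted p of 0.531, and a second probe gave -0.64. Without vehicle 3 it was -0.46, and without the 4 arrays of the series poorest in astrocyte markers, a choice made after seeing the data, it was -0.56 and passed at an adjusted p of 0.0218. Pim1, a survival kinase, was at -0.22 and the stress kinase gene Plk3 at -0.30. Bdnf, the neurotrophin best known as a target of calcium entry, was 2.07 to 2.49 with Ro25 and 2.14 to 2.79 with vehicle. Its difference of -0.21 had an interval of -0.49 to 0.07, against -1.79 with AP5. Homer1, Pcsk1 and Syt4, all known as activity-induced, were between -0.01 and 0.01.

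Genes tied to activity-dependent survival had a median of -0.11 over 10 measured members, and 4 (Npas4, Nr4a1, Ifi202b and Btg2) had an unadjusted p under 0.05, all lower, against 2.92% of all genes. All but Ifi202b also stand in the lists of immediate early or later genes. Atf3, Gadd45b and Gadd45g, stress-responsive members that were at 0.67, 0.66 and 0.80 with AP5, were at -0.01, -0.02 and 0.02 with Ro25. Pmaip1, which encodes the pro-apoptotic protein Noxa, was at 0.21 (SE 0.08) with Ro25 and 1.07 with AP5. Vehicle 2 stood at 0.36 for it, above 3 of the 5 Ro25 arrays, and within slide 4 the sign turned to -0.02. Icosl, an immune ligand gene at 2.06 with AP5, was at 0.14 with an interval of -0.08 to 0.36. Pro-apoptotic genes as a list had a median of 0.03 over 21 members and anti-apoptotic genes of -0.04 over 10.

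The histone deacetylase genes and MEF2 factors named by the study's question differed little. Hdac4, the class IIa deacetylase of the title, was 0.30, 0.61, 0.39, 0.40 and -0.08 with Ro25 and 0.16, 0.26, 0.60, 0.40 and 0.57 with vehicle. Ro25 5 was the lowest array, and the groups overlapped over most of their range. The difference of -0.07 had an interval of -0.33 to 0.18, within 1.5-fold either way. Hdac5 was at -0.08 (interval -0.18 to 0.01), Hdac9 at 0.07 (-0.37 to 0.52) and Mef2d at 0.06 (-0.11 to 0.23). With AP5 these were 0.46 for Hdac4, -0.57 for Hdac5, -0.83 for Hdac9 and 0.38 for Mef2d. Transcript levels say nothing of where the Hdac4 protein lies in the cell, which is how it is chiefly regulated.

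NMDA receptor genes themselves showed no called difference. Grin1 was at -0.03 (interval -0.20 to 0.14) and Grin2a at 0.04 (-0.19 to 0.27). Grin2b, the subunit gene that antagonists with this prefix are known for, was 1.65, 2.37, 2.24, 1.98 and 1.90 with Ro25 and 1.56, 1.80, 1.72, 1.85 and 1.90 with vehicle. Ro25 1 lay below 4 vehicle arrays and Ro25 2 and 3 were high. The difference was 0.26 (interval -0.06 to 0.59), 4 other probes gave 0.01 to 0.24, and the green reference signal of the main probe was itself at -0.25 (SE 0.11).

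Synaptic and channel genes leaned upward, as did other genes with a high level against the reference. All 13 GABA-A receptor subunit genes were above 0 (53.6% of all genes were), as were 16 of 17 AMPA and kainate receptor genes, 21 of 23 presynaptic genes, 21 of 23 postsynaptic density genes and 25 of 29 voltage-gated channel genes. Their medians were 0.12, 0.11, 0.08, 0.09 and 0.08. Of the presynaptic genes, 7 had an unadjusted p under 0.05, all higher (30.4%, against 3.23% of all genes), and 0 passed the adjusted threshold. Yet genes of any function with a mean log2 ratio above 3 had a median of 0.12, and 92.3% of these 1070 genes were above 0. Of the 1070, 237 were higher at an unadjusted p under 0.05, and the presynaptic list had a median ratio of 3.28. The share of all genes is thus a low mark to set that list against. Genes with a mean log2 ratio between 1 and 3 had a median of 0.04, those between -1 and 1 of 0.009, those between -3 and -1 of -0.06, and those below -3 of -0.11. With each member given the median of its class, the 5 lists would stand at 0.12 (GABA-A), 0.04 (AMPA and kainate), 0.12 (presynaptic), 0.04 (postsynaptic) and 0.04 (channels). These classes are wide. The AMPA and kainate list and the postsynaptic list had median ratios of 2.97 and 2.94, at the edge between classes, so these values are rough. The spread of the log ratios differed between arrays, with an SD over genes of 1.60 to 1.68 with Ro25, 1.61 to 1.62 on vehicle 2, 3 and 4, and 1.54 and 1.52 on vehicle 1 and 5. With all arrays brought to 1 spread, the 5 classes had medians from -0.009 to 0.007, and the presynaptic median was 0.009 with 13 of 23 above 0. The other lists then stood at 0.03 (GABA-A), -0.003 (AMPA and kainate), 0.008 (postsynaptic) and 0.01 (channels). Vehicle 2, on the slide shared with Ro25, was the highest vehicle array for 46.5% of genes with ratios above 3, and within slide 4 the presynaptic median was -0.008. The part of slide and spread in these higher values was not tested beyond these values.

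**Figure D3:**
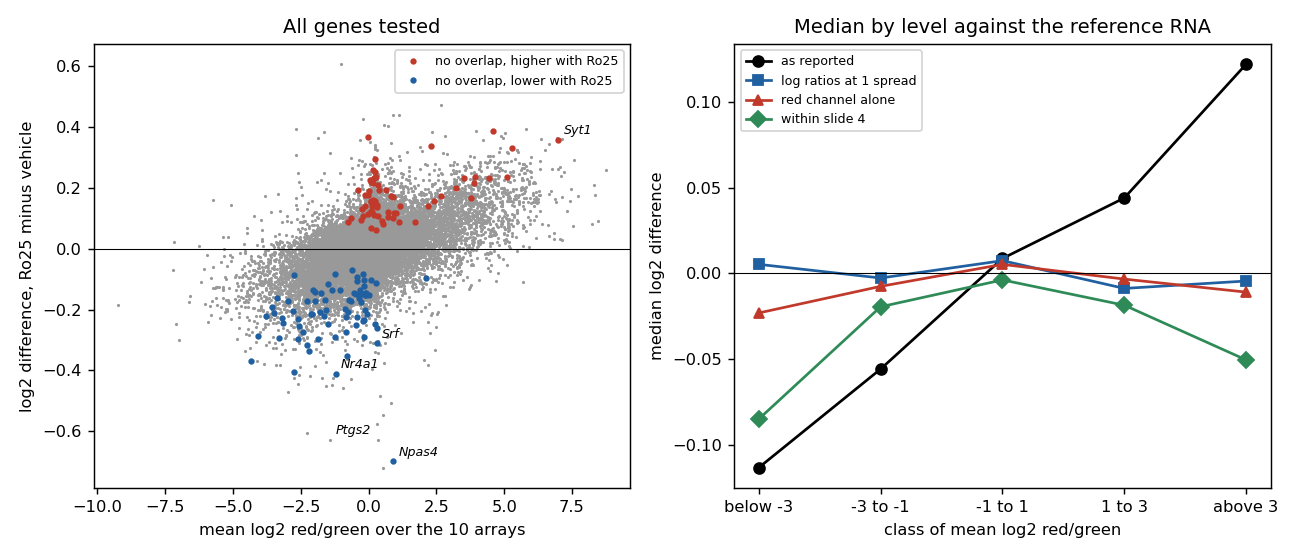
Left, log2 difference of each of the 19197 genes against its mean log2 red/green over the 10 arrays, with genes without overlap in red (63 higher) and blue (79 lower). Right, median difference in 5 classes of mean ratio under 4 ways of processing: as reported it climbs from -0.11 to 0.12, while with log ratios at 1 spread it stays between -0.009 and 0.007.

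Syt1, the calcium sensor of vesicle release, was the largest of the presynaptic genes at 0.36 (SE 0.07). Its log2 ratio was 7.15, 7.26, 7.24, 7.18 and 7.003 with Ro25 and 6.75, 6.82, 6.79, 6.78 and 6.91 with vehicle. The groups did not overlap on this probe, but 4 other Syt1 probes gave only 0.11 to 0.17. The green signal of the main probe, from the same reference RNA on each array, was at -0.22 (SE 0.04), and the red channel alone gave 0.04. For the potassium channel gene Kcna1, at 0.36, green was at -0.27 and the value within slide 4 was 0.02. Camk2b, a subunit of the calcium-dependent kinase of the postsynaptic density, was at 0.22 and turned to -0.03 within slide 4. For the lower genes Nr4a1, Srf and Ptgs2, green was at 0.01, -0.05 and -0.07 and the red channel alone gave -0.38, -0.38 and -0.73. Over all genes, 1 of 19197 was called in the green channel between the groups (limma adjusted p = 0.0229). In that channel 1731 of the 19197 had an unadjusted p under 0.05 and 12 a difference of at least 1.5-fold. The log ratios gave 1182 and 6. Thus the signal of the shared reference RNA itself differed between the groups for at least as many genes as the ratios did.

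**Figure D4:**
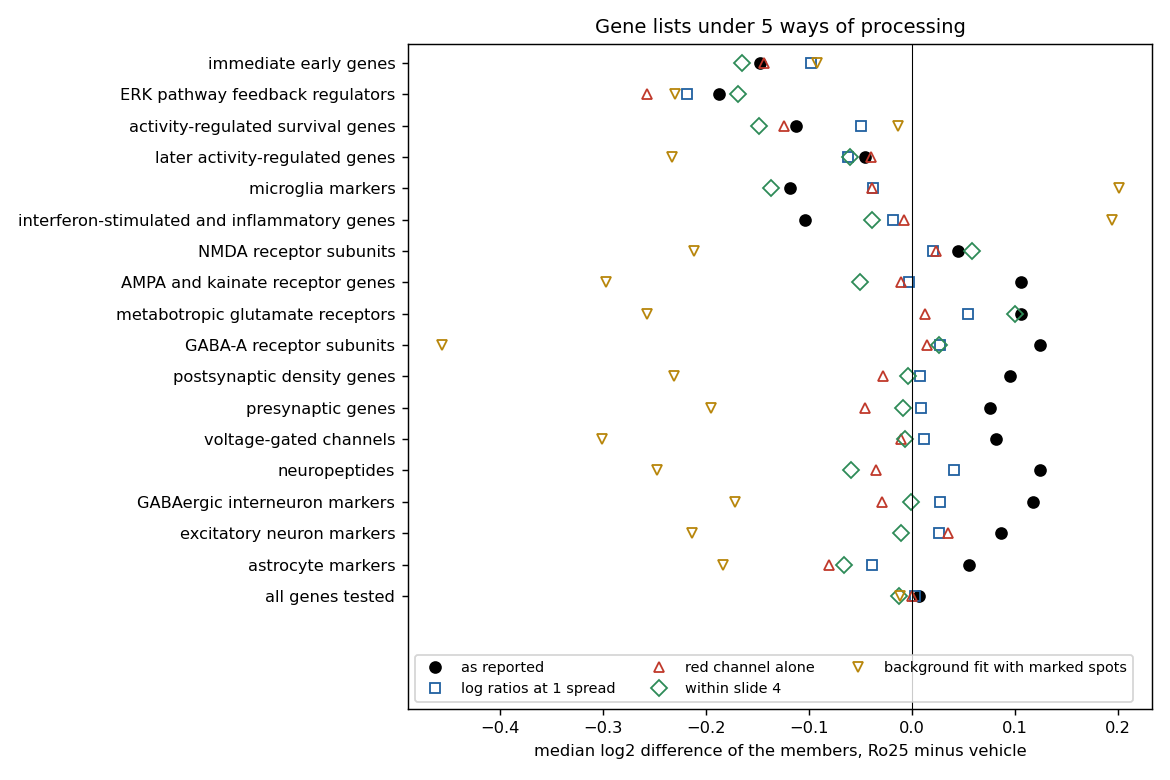
Median log2 difference of 17 gene lists and of all genes under 5 ways of processing, Ro25 minus vehicle. Immediate early genes and ERK feedback regulators lie below 0 in all 5, whereas the presynaptic median goes from 0.08 as reported to -0.19 when marked spots enter the background fit.

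Lists of genes with low ratios leaned downward. Microglial markers had a median of -0.12 over 12 measured members, with Tyrobp, Trem2, Tmem119 and Fcer1g at -0.20 to -0.23 and an unadjusted p under 0.05 (2.92% of all genes were lower at that p). Their median ratio was -2.31, and 250 of the 3140 genes between -3 and -1 were lower at that p. With log ratios at 1 spread, Agilent's ratio or the red channel alone, 0 of the 12 markers reached it. At 1 spread their median was -0.04, and it was 0.20 when marked spots entered the background fit. Interferon-stimulated and inflammatory genes had a median of -0.10 over 21, and 0.19 with marked spots in that fit. Tnfaip3, an inhibitor of NF-kappaB induced by it, was -2.11 to -2.02 with Ro25 and -1.98 to -1.82 with vehicle, without overlap, at -0.17 (SE 0.05). With marked spots in the background fit it turned to 0.04, and it was -0.74 with AP5.

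Among the other lists, Car9 and Kdr had the largest single differences. Car9, a carbonic anhydrase induced by hypoxia, was -1.47, -2.13, -2.01, -1.51 and -1.89 with Ro25 and -1.52, -1.24, -1.29, -1.47 and -1.24 with vehicle. The 3 Ro25 arrays on slide 4 were the low ones, and Ro25 1 and 4 on slide 3 lay inside the vehicle range. The difference was -0.45 (SE 0.14) over all 10 arrays, and within slide 4 it was -0.77 (SE 0.14). Kdr, a receptor for VEGF, was 2.15 to 2.82 with Ro25 and 1.86 to 2.47 with vehicle, at 0.38 (SE 0.14), and at 1.28 with AP5. Heat shock, antioxidant, circadian clock, FOXO-regulated and integrated stress response genes had medians between -0.004 and 0.02, with 1 lower gene (Per2, -0.18) and 1 higher gene (Foxo6, 0.20) at an unadjusted p under 0.05. Cholesterol synthesis genes had a median of -0.06 with 20 of 24 below 0 and none at that p, and 0.07 within slide 4.

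Values did not overlap between the groups for 142 genes (0.74%), 63 higher (0.328%) and 79 lower (0.412%). Arrays labelled at random in groups this small would separate about as large a share of genes. Lack of overlap alone, here and for the genes named above, therefore does not mark a gene as changed. Of the 142, 94 were well above background on all 10 arrays, 42 of the higher and 52 of the lower. The higher ones ranged from 0.06 to 0.39 with a median of 0.16, and the lower ones from -0.70 to -0.07 with a median of -0.20. With all arrays at 1 spread, 33 of the 63 and 34 of the 79 were still without overlap. With Agilent's own processed ratio 20 and 16 were, and with the red channel alone 6 and 14. Counted over all genes, those without overlap numbered 102 at 1 spread, 100 with Agilent's ratio and 138 with the red channel alone. Each way of processing thus picked partly other genes. Among omissions of 1 array, leaving out vehicle 2 gave the highest count, 415 genes, against 192 to 295 for the other 9 arrays in turn. With fewer arrays overlap is less likely by itself, so these counts compare with each other and not with the 142.

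After Npas4, Nr4a1 and Srf, the non-overlapping lower genes with an official symbol and the smallest p were Acpp (-0.35), Acod1 (-0.37), Cdh16 (-0.23), C030034I22Rik (-0.23), Senp1 (-0.20), Plekhj1 (-0.17) and Naip5 (-0.32). Acod1 makes itaconate in activated macrophages, and Senp1 removes SUMO from proteins. Acpp was well above background on 2 of 5 Ro25 and 5 of 5 vehicle arrays and its other probe gave -0.01, while Cdh16 and Naip5 reached that level on 5 and 4 of the 10. Senp1 was -1.05 to -0.96 with Ro25 and -0.83 to -0.69 with vehicle, well above background throughout. The higher ones named, after Syt1, were Etd (0.25), Rit2 (0.39), Dclk2 (0.17), Cyp2b19 (0.30), Zfp874a (0.34), Cfi (0.23), Rxfp1 (0.22) and Frmd5 (0.22). Rit2, a small GTPase of neurons, was 4.55 to 5.04 with Ro25 and 4.37 to 4.44 with vehicle, and its second probe gave 0.10. Dclk2, a microtubule-binding kinase, was 2.70 to 2.83 against 2.51 to 2.64. The green reference signal differed by -0.04 for Dclk2, but by -0.19 (SE 0.05) for Rit2, -0.25 (SE 0.06) for Zfp874a, 0.16 (SE 0.05) for Etd and 0.49 (SE 0.14) for Cyp2b19. Rxfp1, a relaxin receptor, was well above background on only 1 Ro25 and 2 vehicle arrays, and Etd and Cfi on 2 and 3 of the 5 vehicle arrays. Each of these named genes had an adjusted p of 0.325 to 0.531 in limma.

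**Figure D5:**
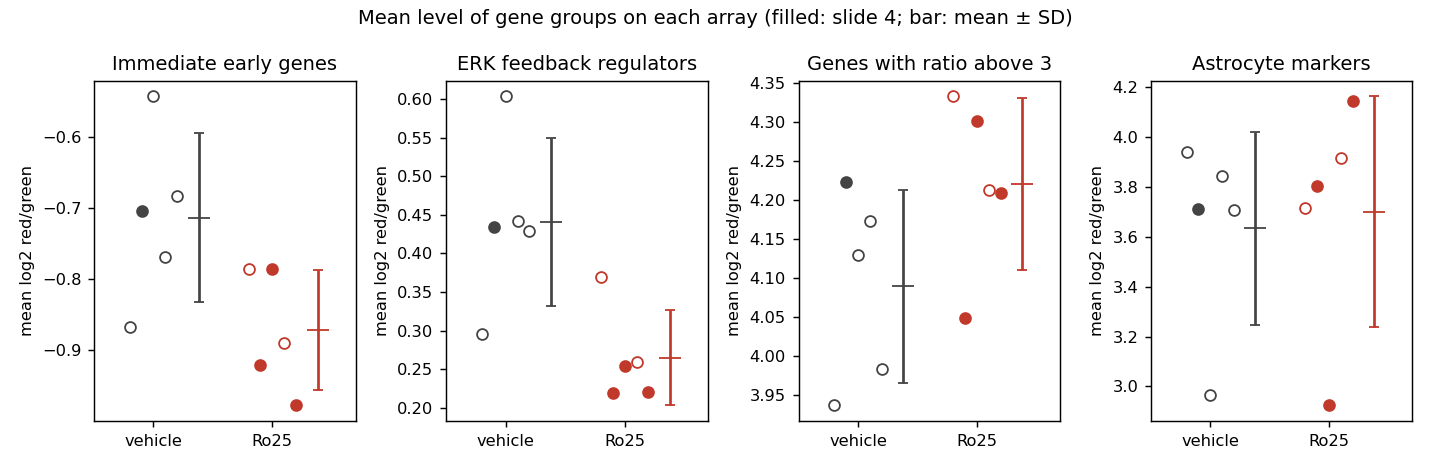
Mean log2 red/green on each array of the 27 immediate early genes, the 14 ERK feedback regulators, the 1070 genes with a mean ratio above 3 and the 17 astrocyte markers, with filled points for slide 4 and bars for mean ± SD over 5 arrays. Vehicle 1 lies inside the Ro25 range for both activity groups, and Ro25 3 (2.92) and vehicle 3 (2.97) are the low arrays for astrocyte markers.

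The probes that carried the main values sit, in the file headers' mm8 coordinates, at chr19:4984833-4984892 for Npas4, chr15:101102674-101102733 for Nr4a1, chr17:46010185-46010243 for Srf and chr1:151869504-151869563 for Ptgs2. Whether they lie in coding or untranslated exons was not analysed here.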

How the data were processed

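Red and green scanner intensities of 19 two-colour Agilent arrays were read as deposited. The file headers give Feature Extraction 9.5.3.1 for this step and the submitters' processing notes version 11.0 of Agilent Feature Extraction. The deposited log10 ratio, background-subtracted and dye-normalized per the file headers, and the authors' processed log2 table of 20674 probes served as alternatives. That table correlated with the ratios computed here at 0.999 to 1.000, so its direction is red over green, while its centring is unknown (column medians 0.0345 to 0.0478).

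Marked spots were left out. Background was corrected by normexp (offset 50), and loess was applied to log2 red over green array by array. Probes well above background in red on at least 4 arrays were kept, 28653 of 41174, and the brightest stood for its gene. Names came from RefSeq (GRCm38.p6) by accession (23374 probes), symbol (6733) or synonym (2919), and 8148 kept the name in the file. limma 3.58.1 in R 4.3.3 (statmod 1.5.0, and the data.table package, version 1.17.8) fitted a mean per group over all 19 arrays, with two-sided tests and Benjamini-Hochberg adjustment, and was tested on simulated data. Figures used Python 3.11.15 and matplotlib 3.10.9. Median red signal per array was 135.5 to 171.0 on the 10 arrays compared, no gene spot was saturated, and any 2 arrays shared no more than 0.0161% of their red signals. The number of arrays limits the precision.

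Named genes were the 10 non-overlapping genes of smallest p with an official symbol in each direction, since 0 were called, the member of smallest p in each of 33 lists and a fixed set of 17 genes. Members, lists and the fixed set were chosen with earlier results of these data known. Of 571 list entries, 542 were tested. Replicate numbers were not used as pairs in the main fit: deviations of same-numbered arrays correlated at -0.37 to 0.76. The highest was for number 3, whose Ro25 and vehicle arrays were both poor in astrocyte markers. Whether same-numbered arrays share a culture is not stated. Alternatives were background correction, scaling, filter, probe choice, slide, replicate block, array weights, astrocyte covariate, the authors' table and leaving out each array. In addition, 1 gene that the rule for named genes picked is not reported here.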

Additional observations from a re-analysis of the deposited data

Results flagged for a closer look

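Each named gene's arrays of a group, 5 or, where a marked spot was left out, 4 (vehicle arrays of Fabp7, Grm6 and Hspa1b), were checked for a single array far from the others, and 13 of 118 such groups were picked out, 7 with Ro25 and 6 with vehicle. Chance alone gives about 1 in 20. Vehicle 2, the vehicle array on the Ro25 slide, was the far one for Acod1 (-3.91, others -4.28 to -4.21), Camk2b (4.74, others 4.47 to 4.54) and Hspa1b (1.90, others 1.79). For Camk2b and Hspa1b this moved it toward the Ro25 arrays, and for Acod1 away from them. Vehicle 5 was far for Cdh16 (0.068, others -0.11 to -0.08) and Senp1 (-0.69, others -0.83 to -0.80), both further from the Ro25 arrays. Vehicle 1 was low for Mef2d at 1.13, against 1.35 to 1.39.

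Among Ro25 arrays, Ro25 2 was low for Foxo6 (3.34, others 3.46 to 3.48) and for Gabra5 (3.07, others 3.34 to 3.42). Ro25 5 was high for Fabp7 (5.96, others 5.69 to 5.76) and low for Hspa1b (1.73, others 1.94 to 2.03) and Hdac5 (0.55, others 0.69 to 0.73). Ro25 3 was high for Dclk2 (2.83, others 2.70 to 2.74), and Ro25 4 was high for Hdac10 (-1.85, others -2.05 to -2.03).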

How the results depend on the processing

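Npas4, Nr4a1, Srf and Ptgs2 stayed below 0 under all 16 alternatives and 10 single-array omissions. Since Npas4, Nr4a1 and Srf did not overlap between groups, their omission and slide 4 values could take no other sign. Npas4 passed limma in none of these settings, and its lowest adjusted p among the alternatives was 0.079. The count of called genes was 0 except with the red channel alone (2, Gbp2 and LOC665798), the astrocyte covariate (2, Ptgs2 and Srf, of which 1 is in a list) and, chosen after seeing the data, without the 4 arrays poorest in astrocyte markers (1, Ptgs2, in a list). Leaving out each array gave 0 to 2, the 2 being Mmd2 and Rtn1 without vehicle 2. With the replicate number as a block 0 genes were called, and 1 of 5 arrays correlated best with its own number.

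Genes of at least 1.5-fold numbered 438 with Agilent's processed ratio, 253 with marked spots in the normexp fit, 101 with the red channel alone, 12 with the mean of probes, 32 with slide as a fixed block and 29 within slide 4. Leaving out an array gave 3 to 10 (3 without vehicle 4, 10 without vehicle 1). Genes without overlap numbered 47 with marked spots in the fit, 226 with no filter on dim probes and 368 without Ro25 3 and vehicle 3, together or with the AP5 and NVP arrays poorest in astrocyte markers (chosen after seeing the data). Leaving out an array gave 192 to 415, where fewer arrays alone make overlap less likely. Bringing arrays to 1 spread left the split of calls at an unadjusted p even, 396 higher and 375 lower, but Agilent's ratio gave 641 and 327, which was 621 and 561 as reported.

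Differences of named genes changed sign as follows, and the cause was not tested. With marked spots in the normexp fit these were Syt1 (-0.18), Rit2 (-0.20), Zfp874a (-0.23), Frmd5 (-0.31), Acod1 (0.24), Senp1 (0.030), Naip5 (0.22), Grin2b (-0.25), Kdr (-0.14), Calb1 (-0.21), Hspa1b (-0.11), Hdac10 (0.024), Shmt2 (0.00047), Tnfaip3 (0.044), Tyrobp (0.36), Ntf5 (0.12), Hdac9 (-0.62), Grin2a (-0.16). With the red channel alone they were Grin2b (-0.039), Fabp7 (-0.042), Camk2b (-0.036), Calb1 (-0.0057), Hspa1b (-0.0029), Sst (-0.0999), Kcna1 (-0.0099), Hdac9 (-0.0043), Grin1 (0.024). With slide as a fixed block and within slide 4, which rest on the same 4 arrays, they were Gria1 (-0.050), Foxo6 (-0.016), Sod1 (-0.033), Camk2b (-0.029), Insig1 (0.0040), Calb1 (-0.015), Hspa1b (-0.013), Sst (-0.0011), Pmaip1 (-0.023), Icosl (-0.027), Hdac4 (0.046), Hdac9 (-0.14), Grin1 (0.038). Agilent's processed ratio turned Hdac5 (0.00018), Hdac9 (-0.27), the authors' table Insig1 (0.022), Mbp (0.043), the mean of probes Mbp (0.0094) and 1 spread Hdac9 (-0.054). Grin1 turned to 0.00028 without Ro25 3 and vehicle 3, with or without the other 2 arrays. Leaving out single arrays turned Grin1 (range -0.065 to 0.0056), Grin2a (-0.0145 to 0.13), Hdac4 (-0.15 to 0.027) and Hdac9 (-0.064 to 0.20), all near 0 as reported.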

Other observations

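Several genes combined a small p with overlapping groups and lie outside the rule for named genes, so they were chosen after their values were seen. Wasf3, an actin regulator of the WAVE complex, was at 0.24 (SE 0.05), Wscd1 at 0.30 (SE 0.06) and Plppr4, a lipid phosphatase-related protein of excitatory synapses, at 0.36 (SE 0.08). Cnn2, an actin-binding calponin, was at -0.32 (SE 0.07) and Treml1 at -0.42 (SE 0.10). None passed limma, with adjusted p of 0.325 for Wasf3, Wscd1 and Cnn2, 0.444 for Plppr4 and 0.498 for Treml1. Mmd2, at 0.36 (SE 0.08, limma adjusted p = 0.325), was called together with Rtn1 when vehicle 2 was left out.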
